A study of Homo sapiens with 6 samples.

Results

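The genes described here encode the nuclear subunits of the 5 complexes of oxidative phosphorylation. Membership was set by a pattern of gene symbols, in a choice made with earlier results of these data known. Every row of the gene count table with a name in certain subunit families was taken. These were NDUFA, NDUFB, NDUFC, NDUFS, NDUFV, SDHA to SDHD, UQCR, COX4 to COX8 and the ATP5 subunits. Names ending in P and a number were left out as pseudogenes. The pattern matched 137 of 36458 gene symbols. Removing 46 pseudogene rows left 91 members, of which 86 are coding genes and 5 are antisense, divergent or read-through transcripts. Complex I (NADH dehydrogenase) had 36 coding members, complex II (succinate dehydrogenase) 4, complex III (cytochrome bc1) 9, complex IV (cytochrome c oxidase) 18 and complex V (ATP synthase) 19. NDUFA4 and NDUFA4L2 were counted with complex IV, where the NDUFA4 protein is found. The symbols miss some nuclear subunits, among them CYC1 and NDUFAB1, which are given apart.

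The cells were DMS114, a single established human small cell lung cancer line. They received β-alanine at 2.5 mM for 48 h, or the same volume of vehicle as control, and polyadenylated RNA was sequenced from 3 libraries per group. β-alanine is an amino acid that proteins do not contain. The study that the series belongs to concerns stathmin 2, β-alanine, metabolism and neuronal invasion, and the comparison of the 2 groups asks which transcripts the amino acid alters.

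Complexes I and II pass electrons from NADH and succinate to ubiquinone, complex III passes them on to cytochrome c, and complex IV hands them to oxygen. Complexes I, III and IV pump protons across the inner mitochondrial membrane, and complex V uses the gradient to make ATP. Except for complex II, which is wholly nuclear encoded, each complex also holds subunits translated inside the mitochondrion, so the nuclear and mitochondrial genes must be matched when a complex is assembled.

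Total counts ranged from 14433801 to 32909568 per library. Within a group, pairs of libraries had a chi-square of 1.88 to 4.47 per gene, above sampling noise, and pairs across groups had 4.31 to 14.27. β-alanine library 1, the smallest, stood apart on the first principal component, at -9.71 against -24.1 and -24.27 for the other β-alanine libraries and 17.3 to 20.74 for the controls. On the second component it was at 28.85, against -9.72 to 1.01 for all other libraries. Pairs across groups that left it out had a chi-square of 10.85 to 14.27 per gene. It had 3.91 and 4.47 with its own group and 4.31 to 5.12 with the controls. Counts of calls are therefore also given without it. Whether the libraries stem from separate cultures is not said in the labels. The p-values then reflect only the spread among these 6 samples, which may be technical. Of the small cell lung cancer markers, YAP1 had 124 ± 4.91 CPM (counts scaled to the size of each library, mean ± SD, n = 3) and NEUROD1 2.28 ± 0.478 in control, while POU2F3 failed the count filter. Of the markers of other cells, the leukocyte genes PTPRC and CD68 and the endothelial genes PECAM1, VWF and CDH5 had at most 3 counts in any library. The 3 tested fibroblast markers (COL1A1, PDGFRB, LUM) summed to 87.2 to 94.1 CPM with β-alanine and 90.4 to 95.9 CPM in control. COL1A1 fell by 0.32 ± 0.10 (edgeR adjusted p = 0.0162), PDGFRB rose by 0.19 ± 0.07 (0.0482) and LUM did not pass (-0.10 ± 0.05, 0.152), and their part in the results was not tested.

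β-alanine moved a minority of the subunit genes, in both directions, and the summed level of these genes overlapped between the groups. Of 91 members, 83 had enough counts to be tested, and 21 of these (25.3%) passed edgeR's quasi-likelihood test at an adjusted p of 0.05, 9 rising and 12 falling. The background was higher: 27.9% of all 17331 tested genes passed, 14.1% rising and 13.8% falling. Among the 6479 tested genes with an average log2 CPM of at least 5, 40.4% passed, against 19 of 63 members (30.2%) of that abundance. At an adjusted p of 0.01 the members' share was close to the background, 14 of 83 (16.9%) against 16.4%. In 12 members every β-alanine library was above every control and in 15 below, together 32.5% of those tested, against 39.1% of all tested genes (19.9% higher, 19.2% lower) and 51.1% of the abundant ones. Without β-alanine library 1 these counts were 16 higher and 22 lower (45.8%), against 56.2% of all tested genes. A member passed only if it had enough counts, so these shares do not describe the 8 members that failed the filter. Without β-alanine library 1, 28 of 84 tested members (33.3%) passed against 36.2% of all genes. Without β-alanine library 2, 13 members (15.7%) passed against 17.0%, with 3 rising and 10 falling. Leaving out any other single library gave 14 to 18 calls, each share below that of all genes except without control library 1, where 21.4% of members passed against 20.7%.

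**Figure D1:**
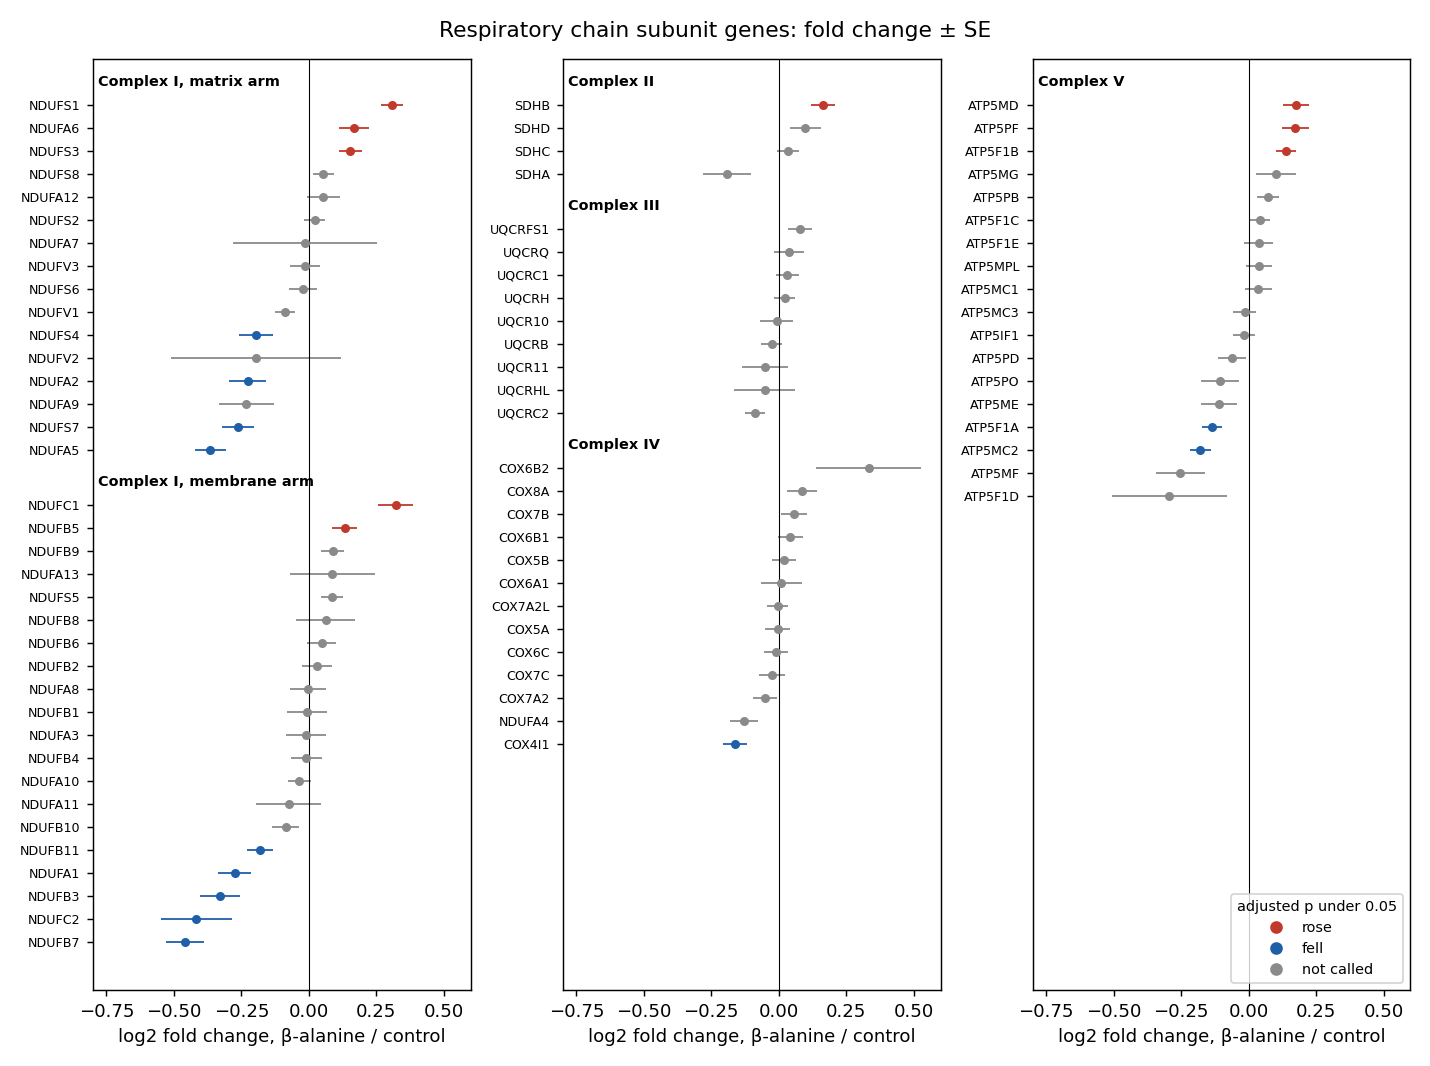
Log2 fold change (β-alanine over control, horizontal axis, ± SE) of the 80 tested coding subunit genes, one row per gene, grouped by complex. Red points rose, blue points fell and grey points did not pass edgeR's test at an adjusted p of 0.05; the complex III points are all grey and lie between -0.09 and 0.08.

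The changes were small. Over the 80 tested coding members, the median size of the log2 fold change was 0.08, against 0.15 over all tested genes and 0.11 over those with an average log2 CPM of at least 5. Only 13 of the 80 (16.2%) moved by more than 0.2 on the log2 scale in either direction, against 39.8% of all tested genes and 23.0% of the abundant ones. Among members that passed the test, NDUFC1 rose the most, by 0.32, and NDUFB7 fell the most, by 0.46. The median log2 fold change of the tested members was -0.01 and that of all tested genes was also close to 0 (-0.0032). The 80 genes summed to 9410, 9572 and 9328 CPM in the β-alanine libraries and to 9553, 9416 and 9204 CPM in the controls. These ranges overlapped, with means of 9437 ± 124 and 9391 ± 176 CPM (SD, n = 3). In RNA from a whole culture, fewer cells of a kind and less RNA per cell cannot be told apart.

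The calls were spread over 4 of the 5 complexes. In complex I, 5 of 36 genes rose and 9 fell, and 38.9% passed against 27.9% of all tested genes. Among its 25 genes with an average log2 CPM of at least 5, 48.0% passed, against 40.4% of all genes of that abundance. In complex II, 1 of 4 rose and 0 fell. None of the 9 complex III genes passed. In complex IV, 0 of 13 tested genes rose and 1 fell. In complex V, 3 of 18 tested genes rose and 2 fell (27.8%). Without β-alanine library 1, 6 rose and 10 fell in complex I, 1 rose in complex II, 0 changed in complex III, 2 fell of 14 in complex IV, and 4 rose and 4 fell in complex V. No difference between complexes, or from the background, was tested. Each of the 5 complexes had a median log2 fold change within 0.07 of 0: -0.01 for complex I, 0.07 for complex II, -0.01 for complex III, -0.00 for complex IV and 0.01 for complex V. Except for complex II, whose median was positive under each alternative, the sign of these medians depended on the processing. Scaling by library totals, which moved the median of all tested genes to 0.0144, put the median of complex I at 0.0063, complex III at 0.0095, complex IV at 0.0136 and all members at 0.0108. Complex III was also at 0.0242 after thinning to equal depth, and complex V at -0.0073 with no filter on low counts and -0.0010 with the GC correction.

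**Figure D2:**
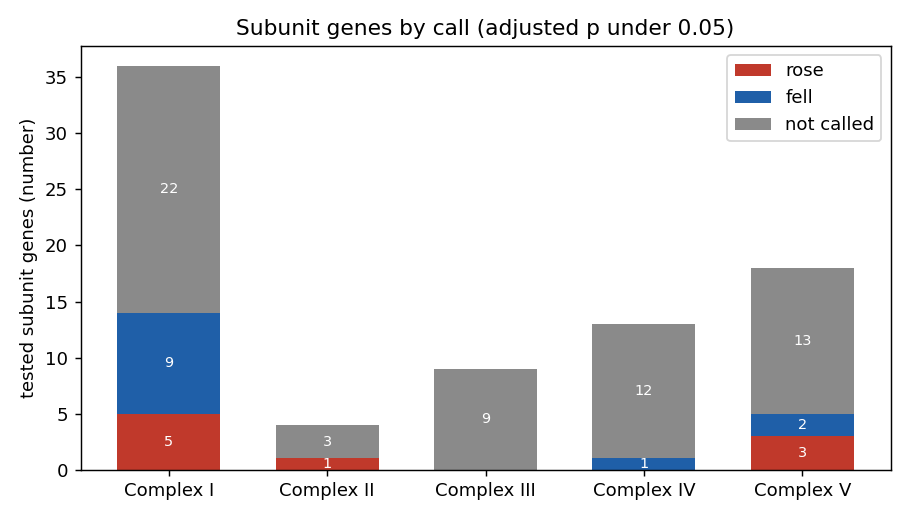
Number of tested coding subunit genes in each complex (vertical axis) that rose, fell or did not pass edgeR's test at an adjusted p of 0.05. Complex I holds 14 of the 21 calls, in both directions, and complex III holds 0.

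Nuclear subunit genes are known for promoters with sites for nuclear respiratory factor 1 (NRF1), for the ETS factor GABP and for YY1. The starts of 69 coding members could be matched in RefSeq's promoter sequences (GRCh38.p14, 250 bases before to 50 after the start). The NRF1 letters, GCGC and TGCGC with any 1 base between them, were found on either strand in 17 of the 69 (24.6%), against 5.78% of all 35116 promoters and 9.53% of the 16470 promoters of tested genes. For CCGGAAG, the ETS core, there were 20 of 69 members, against 10.3% and 16.0%. For AANATGGCG, the YY1 letters, the shares were 23.2%, 3.19% and 5.55%. In members, all YY1 matches except those of NDUFS8 and ATP5PF began after the start, at position 9 to 42. Whether the ATG in these letters begins translation was not tested. No match of one factor overlapped a match of another in a member's window. The NRF1 letters were in 0 of 7 matched members that rose, 0 of 11 that fell and 16 of 48 that did not pass (33.3%). The ETS letters were in 5 of 7 that rose, 3 of 11 that fell and 12 of 48 that did not pass. The YY1 letters were in 5 of 7 that rose, 2 of 11 that fell and 9 of 48 that did not pass. These are descriptions of letters in a window, with no test, and say nothing of binding.

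The complex III genes, of which none passed, held the NRF1 letters in 4 of 7 matched promoters (57.1%). Complex IV, with 1 call, held them in 1 of 14 (7.14%). That promoter belongs to COX8C, which failed the count filter and was not tested. They were in 6 of 31 in complex I (19.4%), 2 of 3 in complex II (66.7%) and 4 of 14 in complex V (28.6%). The first window below shows the 160 bases before the start of UQCR11, a small complex III subunit, which holds both NRF1 matches (starting at -29 and -10, counted from -1 at the base before the start) and 2 ETS matches (-117 and -97). It lies on the minus strand at chr19:1605463-1605622. The second shows the same stretch of NDUFB7, the complex I gene that fell the most, which lies on the minus strand at chr19:14572067-14572226 and holds 1 ETS match and no NRF1 match. Sequences run 5′ to 3′ on the gene's strand, and capitals mark the matches.
UQCR11: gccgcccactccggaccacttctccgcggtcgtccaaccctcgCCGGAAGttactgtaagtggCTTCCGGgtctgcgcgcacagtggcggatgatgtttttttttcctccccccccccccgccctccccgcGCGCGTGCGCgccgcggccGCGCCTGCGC
NDUFB7: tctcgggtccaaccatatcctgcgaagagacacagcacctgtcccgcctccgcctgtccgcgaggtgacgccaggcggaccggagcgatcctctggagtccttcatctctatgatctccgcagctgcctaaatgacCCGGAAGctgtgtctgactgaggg

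The NRF1 matches of 3 further complex III genes are shown with 8 bases on either side, for comparison with UQCR11. They belong to UQCRFS1 (chr19:29213165-29213190, minus strand), UQCRC1 (chr3:48609676-48609701, minus strand) and UQCR10 (chr22:29767353-29767378, plus strand).
UQCRFS1: gcctcctcGCGCCTGCGCcgtggttg
UQCRC1: acggtactGCGCCTGCGCcgcgaccg
UQCR10: cggccccaGCGCAGGCGCggtggcgc

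The 5 members that rose with the YY1 letters are shown next, with the 2 that fell, because the same letters stood in both. In all but ATP5PF the match began at position 11 to 26, the start being position 1. The rising genes were NDUFS1 (chr2:206159413-206159437, minus strand), NDUFS3 (chr11:47579081-47579105, plus strand), NDUFA6 (chr22:42090731-42090755, minus strand), SDHB (chr1:17054006-17054030, minus strand) and ATP5PF (chr21:25735095-25735119, minus strand). The falling genes were NDUFS7 (chr19:1383916-1383940, plus strand) and NDUFS4 (chr5:53560652-53560676, plus strand).
NDUFS1: gccgaggcCGCCATATTgaataagc
NDUFS3: atctgagtAACATGGCGgcggcggc
NDUFA6: gctttggcAAGATGGCGgggagcgg
SDHB: caggagccAAGATGGCGgcggtggt
ATP5PF: gcgaagaaAAGATGGCGgaggctgt
NDUFS7: ccgaggccAAGATGGCGgtgctgtc
NDUFS4: cctgcagcAAGATGGCGgcggtgtc

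Complex I is L-shaped: a matrix arm takes electrons from NADH and passes them along iron-sulphur clusters to ubiquinone, and a membrane arm pumps protons. In the matrix arm, 3 of 16 genes rose and 4 fell (43.8%), against 27.9% of all tested genes. Without β-alanine library 1, 3 rose and 5 fell, and 36.2% of all tested genes passed. Differences of either arm from these backgrounds were not tested. NDUFS1, the large iron-sulphur subunit of the NADH-oxidising tip, had 193, 211 and 202 CPM in β-alanine libraries 1, 2 and 3, and 163, 163 and 166 CPM in the controls. Every β-alanine library was above every control. The log2 fold change was 0.31 ± 0.04 (SE; edgeR adjusted p = 1.11e-05). NDUFS3, part of the ubiquinone-reducing module, had 96.1, 97.2 and 100.7 CPM with β-alanine and 87.9, 87.9 and 88.8 CPM in control. No control reached the β-alanine libraries, and the gene rose by 0.15 ± 0.04 (edgeR adjusted p = 0.0103), a call lost without β-alanine library 3 (adjusted p = 0.0792). NDUFA6, an accessory subunit that binds the mitochondrial acyl carrier protein, rose by 0.17 ± 0.06 (edgeR adjusted p = 0.0285). Its call was lost with DESeq2 (adjusted p = 0.0651), the length correction (0.0534) and thinning (0.0982), and without β-alanine library 2 or 3, and without control library 2 or 3.

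The matrix arm genes that fell stood beside those that rose. NDUFS7, which carries the last iron-sulphur cluster before ubiquinone, had 40.7, 38.4 and 37.9 CPM with β-alanine and 44.5, 50.1 and 44.9 CPM in control. All β-alanine libraries were below all controls, at a log2 fold change of -0.26 ± 0.06 (edgeR adjusted p = 0.00225). NDUFA5, an accessory subunit of the ubiquinone module, had 37.4, 34.6 and 34.6 CPM with β-alanine and 44.0, 45.6 and 47.1 CPM in control. It fell by 0.37 ± 0.06 on the log2 scale (edgeR adjusted p = 6.71e-05), again without overlap. The ratio of NDUFS1 to NDUFS7 counts, both from the same library, was 4.74, 5.50 and 5.34 with β-alanine and 3.65, 3.26 and 3.68 in control. The pair was chosen because the 2 genes moved in opposite directions, so the ratio describes them and adds no test. NDUFS4 and NDUFA2, accessory subunits of the NADH-oxidising module, fell by 0.20 ± 0.06 (edgeR adjusted p = 0.0226) and 0.23 ± 0.07 (edgeR adjusted p = 0.0158). The NDUFS4 call was lost with DESeq2 (adjusted p = 0.0506) and without β-alanine library 3 or control library 1 or 2, and the NDUFA2 call with thinning (adjusted p = 0.0857) and without β-alanine library 3 or control library 1.

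The NADH-binding subunits themselves did not pass. NDUFV1, the flavin subunit, was the most abundant complex I gene per length, at 596 CPM per kilobase of transcript in control. It had 905, 881 and 899 CPM with β-alanine and 923, 994 and 936 CPM in control. The groups did not overlap, but the log2 fold change of -0.09 ± 0.04 missed the threshold (edgeR adjusted p = 0.0797). Without β-alanine library 1 it passed (-0.10, adjusted p = 0.0208), as it did with at least 50 counts required in every library (0.0498). NDUFV2, its iron-sulphur partner, had only 15 to 22 counts per library, or 0.921 CPM per kilobase in control. The row of its pseudogene NDUFV2P1 held 16 to 54 counts, and whether reads were shared between such copies was not tested. NDUFV2 had a log2 fold change of -0.20 with a 95% interval from -0.85 to 0.45, too wide for a difference to be detectable at this depth.

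In the membrane arm, 2 of 20 genes rose and 5 fell (35.0%), against 27.9% of all tested genes. Without β-alanine library 1, 3 rose and 5 fell, and 36.2% of all tested genes passed. NDUFC1, a small subunit of the proximal arm, had 36.2, 42.6 and 40.2 CPM with β-alanine and 32.6, 32.1 and 31.2 CPM in control, a rise of 0.32 ± 0.06 (edgeR adjusted p = 0.00068). All β-alanine libraries were higher, library 1 being nearest the controls. NDUFC2, its neighbour in the complex, moved the other way. It had 4.46, 3.90 and 4.14 CPM with β-alanine and 5.73, 5.46 and 5.35 CPM in control, and fell by 0.42 ± 0.13 (edgeR adjusted p = 0.0206). That call rests on 64 to 138 counts per library and was lost with DESeq2 (adjusted p = 0.0735) and without β-alanine library 2 or 3, and without control library 1 or 2. NDUFB5, of the distal arm, rose by 0.13 ± 0.05 (edgeR adjusted p = 0.0351), a call also lost with DESeq2 (adjusted p = 0.0771) and the GC correction (0.0739), and without β-alanine library 2 or any 1 control library.

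NDUFB7, a distal arm subunit facing the intermembrane space, had 32.4, 28.4 and 28.6 CPM with β-alanine and 42.8, 42.1 and 36.7 CPM in control. The highest β-alanine library lay below the lowest control, and the gene fell by 0.46 ± 0.07 (edgeR adjusted p = 4.34e-05). NDUFB3, also of the distal arm, had 18.9, 17.7 and 17.3 CPM with β-alanine and 21.8, 23.7 and 21.5 CPM in control. It fell by 0.33 ± 0.08 (edgeR adjusted p = 0.00229). NDUFA1, a small subunit needed for assembly of the membrane arm, fell by 0.28 ± 0.06 (edgeR adjusted p = 0.00167), from 43.7 ± 3.10 to 36.2 ± 0.996 CPM (SD, n = 3). NDUFB11 fell by 0.18 ± 0.05 (edgeR adjusted p = 0.00685), from 98.1 ± 2.30 to 86.9 ± 5.44 CPM, and its call was lost without β-alanine library 2. The remaining 13 membrane arm genes did not pass, with edgeR adjusted p-values of at least 0.128. Over all 36 genes, complex I summed to 3287 ± 7.46 CPM with β-alanine and 3304 ± 60.7 CPM in control (SD, n = 3), and the single libraries overlapped.

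**Figure D3:**
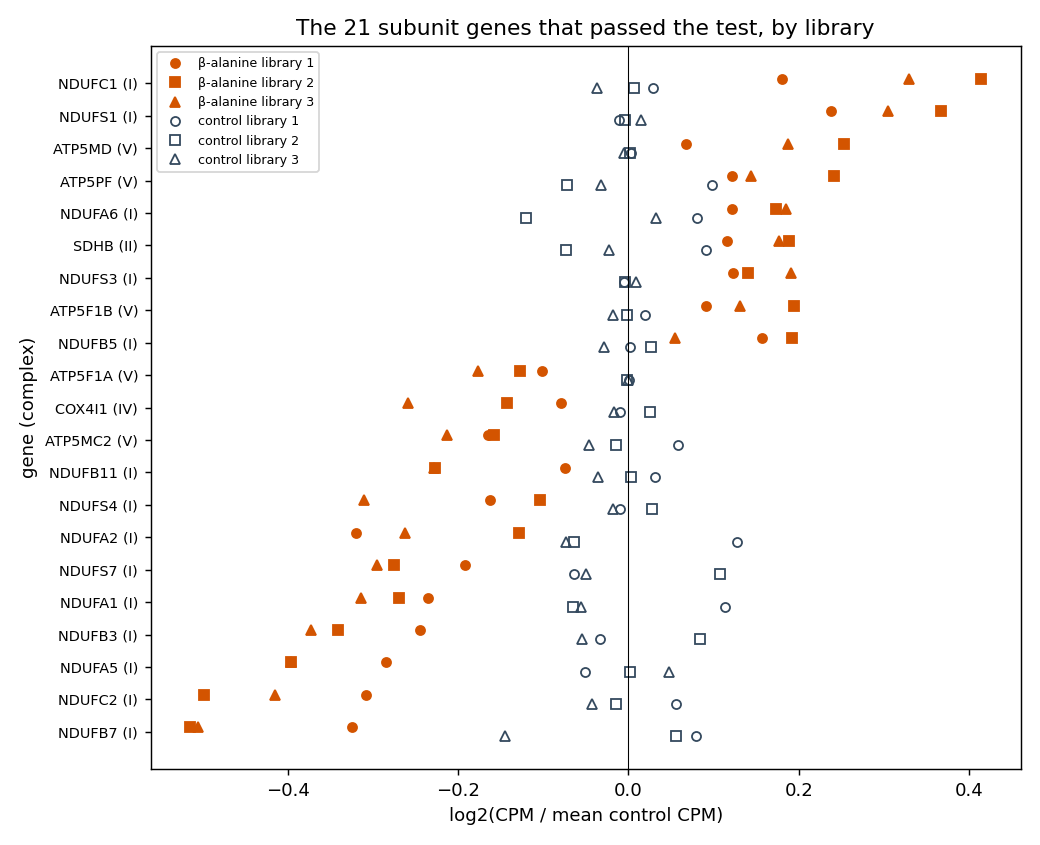
Log2 of CPM over the mean control CPM (horizontal axis) for the 21 subunit genes that passed the test, in each of the 6 libraries; filled orange symbols are β-alanine and open dark symbols control, with the shape giving the library number. In each gene the orange symbols lie on one side of all the open ones, from NDUFB7 at the lowest to NDUFC1 at the highest fold change.

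Some of these rows share sequence with another gene. Of the 21 members that passed, 15 have an exon that overlaps an exon of another annotated gene, as do 45 of the 80 tested coding members. The use of strand in counting is not given in the sources used here, so reads from opposite strands cannot be told apart. NDUFB11 overlaps RBM10 on the opposite strand, which fell by 0.26 ± 0.05 (edgeR adjusted p = 0.000719). NDUFS3 overlaps KBTBD4 on the opposite strand, which rose by 0.24 ± 0.05 (edgeR adjusted p = 0.00172), and CELF1, which did not pass (0.01 ± 0.04, 0.876). On the same strand NDUFS3 overlaps PTPMT1, which fell by 0.41 ± 0.13 (edgeR adjusted p = 0.0255). NDUFS7 overlaps the opposite-strand gene AC005329.1, which fell by 0.32 ± 0.09 (edgeR adjusted p = 0.00905). NDUFS1 overlaps EEF1B2, whose log2 fold change was 0.06 ± 0.04 (edgeR adjusted p = 0.251). How much the shared stretches added to each member was not tested.

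Complex II has only 4 subunits. SDHB, the iron-sulphur subunit, had 150, 158 and 156 CPM with β-alanine and 147, 131 and 136 CPM in control. The groups did not overlap, though control library 1 and β-alanine library 1 lay close, and SDHB rose by 0.16 ± 0.04 (edgeR adjusted p = 0.00883). It no longer passed without β-alanine library 2 (adjusted p = 0.0543), control library 2 (0.0952) or control library 3 (0.0516). SDHA, the flavoprotein that oxidises succinate, had 12.5, 13.3 and 12.9 CPM with β-alanine and 13.2, 14.9 and 16.3 CPM in control. The groups overlapped, with a log2 fold change of -0.19 ± 0.09 (edgeR adjusted p = 0.122). SDHA's level per length was 6.18 CPM per kilobase in control, against 120 for SDHB. SDHA had 179 to 432 counts per library, and the rows of its pseudogenes SDHAP1 and SDHAP3 had 301 to 916 and 246 to 595. Whether reads of SDHA were shared with or lost to these copies was not tested, so its level per length is uncertain. The membrane anchors SDHC and SDHD had log2 fold changes of 0.03 ± 0.04 and 0.10 ± 0.06 (edgeR adjusted p = 0.564 and 0.216). The 4 genes summed to 419 ± 12.5 CPM with β-alanine and 397 ± 8.74 CPM in control, and the single libraries overlapped (405 CPM in β-alanine library 1 against 407 CPM in control library 1).

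Complex III did not change detectably in any of its 9 genes. The log2 fold changes ran from -0.09 to 0.08, and the 95% intervals of the 9 genes together spanned -0.29 to 0.18. At an unadjusted p of 0.05, 1 gene passed in edgeR, DESeq2 and limma-voom, the core protein gene UQCRC2, and 0 passed after adjustment in each of the 3 tools. UQCRC2 had 266, 277 and 260 CPM with β-alanine and 286, 279 and 289 CPM in control, without overlap, at a log2 fold change of -0.09 ± 0.04 (edgeR adjusted p = 0.0923). UQCRC1, the other core protein gene, was at 138 ± 5.21 and 134 ± 4.10 CPM (SD, n = 3), a log2 fold change of 0.03 with a 95% interval from -0.06 to 0.12. UQCRFS1, which encodes the Rieske iron-sulphur protein, was at 141 ± 6.40 and 133 ± 4.81 CPM, with an interval from -0.01 to 0.17. The 6 small subunit genes lay between -0.05 and 0.04. They include UQCRHL, a copy of UQCRH, and without it the median log2 fold change of the other 8 genes was 0.0072, against -0.0081. The complex summed to 1085 ± 18.3 CPM with β-alanine and 1091 ± 11.5 CPM in control. These p-values miss the threshold, which does not show that the levels were equal.

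CYC1, which encodes cytochrome c1 and is a core subunit of the same complex, falls outside the symbol rule. It had 86.5 ± 9.63 CPM with β-alanine and 119 ± 3.38 CPM in control (SD, n = 3). This was a fall of 0.47 ± 0.06 on the log2 scale (edgeR adjusted p = 3.58e-05), beyond the range of the 9 complex III members.

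In complex IV, COX4I1 alone passed among the 13 tested genes. It encodes the large nuclear subunit through which ATP regulates the enzyme. COX4I1 had 172, 165 and 152 CPM with β-alanine and 181, 185 and 180 CPM in control. All β-alanine libraries were lower, and it fell by 0.16 ± 0.04 (edgeR adjusted p = 0.00836), a call lost without β-alanine library 3 (adjusted p = 0.084) or control library 2 (0.0607). NDUFA4 had 165, 154 and 145 CPM with β-alanine and 181, 162 and 161 CPM in control, with overlap. Its log2 fold change of -0.13 ± 0.05 missed the threshold (edgeR adjusted p = 0.0709) and passed it without β-alanine library 1 (-0.18, adjusted p = 0.00143). It also passed with no low-count filter (adjusted p = 0.0376) and with a replicate block, alone (0.0197) or with the GC correction (0.00405).

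Several complex IV subunits come as a common form and a form of particular tissues, and DMS114 libraries held almost only the common ones. COX6A1, COX6B1, COX7A2, COX7B and COX8A, the common forms, had 50.9 to 111 CPM in control except COX6A1 at 40.8 CPM, and log2 fold changes between -0.05 and 0.09 with edgeR adjusted p-values of at least 0.256. The direction of COX6A1 (0.01 ± 0.08) turned with the corrections for GC content and length and with thinning to equal depth. The lung form COX4I2 had 1 count in all β-alanine libraries together and 0 in control, where 3 counts, taken as the limit that a count of 0 allows, would be 0.0496 CPM over the group. The muscle forms COX6A2 and COX7A1 had 1 to 2 counts per group, and the testis form COX8C had 9 counts with β-alanine and 15 in control. NDUFA4L2, the hypoxia-linked relative of NDUFA4, had 25 and 18 counts. These 5 failed the count filter, and the gene count table has no row named COX7B2. COX6B2, another testis form, was the only tissue form tested. It had 2.65, 2.55 and 2.61 CPM with β-alanine and 1.46, 2.23 and 2.45 CPM in control, without overlap, and a log2 fold change of 0.33 ± 0.19 (edgeR adjusted p = 0.216). COX7A2L, which links complexes III and IV, stayed at 171 ± 4.18 and 171 ± 3.52 CPM (SD, n = 3).

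**Figure D4:**
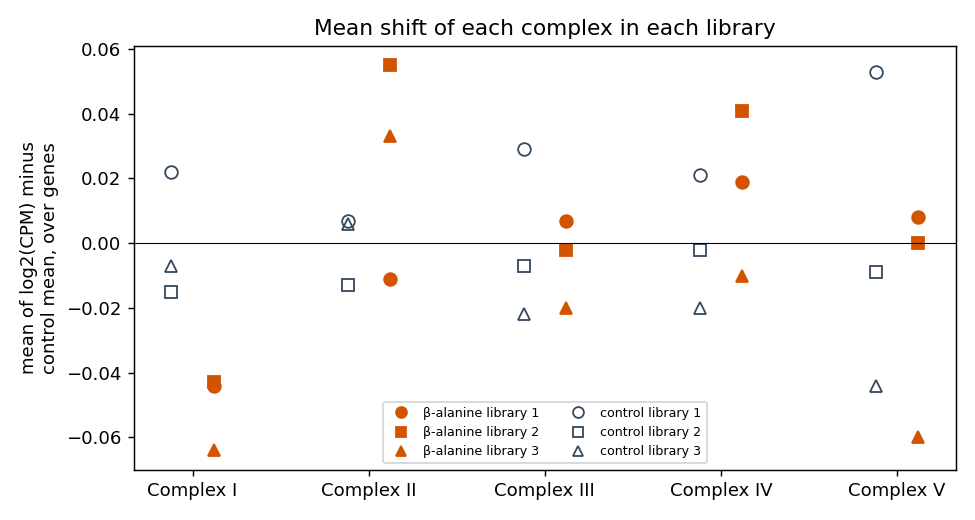
Mean over the tested coding genes of each complex of log2 CPM minus the control mean (vertical axis), in each library; filled orange symbols are β-alanine, open dark symbols control. In complex I the means of the 3 β-alanine libraries (-0.044, -0.043 and -0.064) lie below the controls (-0.015 to 0.022). The medians over the same genes, not drawn, overlap: -0.028, 0.006 and -0.024 with β-alanine, and 0.012, 0.003 and -0.027 in control. In complexes II to V the means of the 2 groups overlap.

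Complex V couples a catalytic F1 head, built from alternating alpha and beta subunits, to a ring of c subunits in the membrane, held by a peripheral stalk. ATP5F1B, the catalytic beta subunit and the most abundant member per length (639 CPM per kilobase in control), had 1252, 1345 and 1287 CPM with β-alanine and 1191, 1174 and 1161 CPM in control. Every β-alanine library was higher, and it rose by 0.14 ± 0.04 (edgeR adjusted p = 0.00593), a call lost without β-alanine library 2 (adjusted p = 0.0694). ATP5F1A, the alpha subunit, had 361, 354 and 342 CPM with β-alanine and 387, 387 and 387 CPM in control. Every β-alanine library was lower, and it fell by 0.14 ± 0.04 (edgeR adjusted p = 0.00714).

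The ratio of ATP5F1B to ATP5F1A counts, which needs no scaling between libraries, was 3.47, 3.80 and 3.76 with β-alanine and 3.08, 3.04 and 3.00 in control. One gene was higher and the other lower in every β-alanine library, so this ratio had to separate the groups and is given as a description. The remaining F1 genes ATP5F1C and ATP5F1E did not pass, at 0.04 ± 0.04 and 0.04 ± 0.05 (edgeR adjusted p = 0.414 and 0.645). ATP5F1D, the delta subunit of the central stalk, had 53.9, 41.8 and 35.2 CPM with β-alanine and 61.6, 51.0 and 44.4 CPM in control. The groups overlapped (-0.29 ± 0.21, edgeR adjusted p = 0.394). Without a replicate block, of edgeR, DESeq2 and limma-voom only the last gave it a call (adjusted p = 0.0412). With a replicate block edgeR called it, alone (adjusted p = 0.000453) or with the GC correction (0.00206).

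The subunit of the c ring is encoded by 3 genes, whose mature product is the same and whose targeting sequences differ. ATP5MC2 had 215, 216 and 208 CPM with β-alanine and 251, 239 and 233 CPM in control. No β-alanine library reached a control, and it fell by 0.18 ± 0.04 (edgeR adjusted p = 0.00176). ATP5MC1 and ATP5MC3 did not pass, at 0.04 ± 0.05 and -0.01 ± 0.04 (edgeR adjusted p = 0.631 and 0.84). ATP5MC2 made up 57.95%, 58.01% and 57.28% of the counts of the 3 genes with β-alanine and 61.18%, 61.05% and 60.17% in control. Its share was lower in every β-alanine library, which follows from its own fall and is given as a description.

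**Figure D5:**
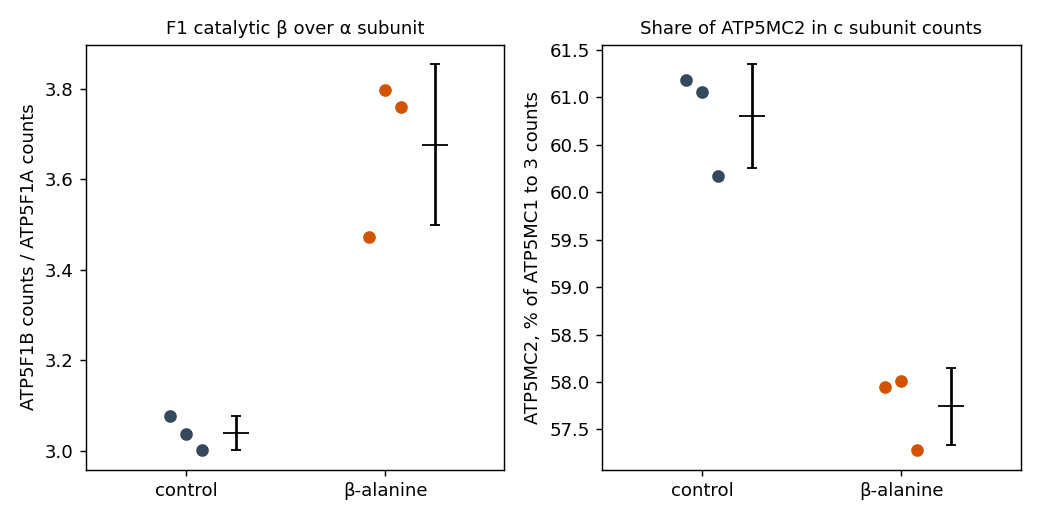
Ratio of ATP5F1B to ATP5F1A counts (left) and ATP5MC2 as a percentage of the counts of ATP5MC1, ATP5MC2 and ATP5MC3 (right) in each library, with the mean and SD of each group beside the points; the vertical axes do not start at 0. All β-alanine ratios (3.47 to 3.80) lie above the controls (3.00 to 3.08), and all β-alanine shares (57.28% to 58.01%) lie below them (60.17% to 61.18%).

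ATP5PF, coupling factor 6 of the peripheral stalk, had 86.7, 94.2 and 88.1 CPM with β-alanine and 85.3, 75.8 and 77.9 CPM in control. β-alanine library 1 and control library 1 nearly met, and it rose by 0.17 ± 0.05 (edgeR adjusted p = 0.0134), a call lost without β-alanine library 2 or control library 2 or 3. ATP5MD (now ATP5MK), a small subunit linked to synthase dimers, rose by 0.18 ± 0.05 (edgeR adjusted p = 0.00726), from 97.7 ± 0.311 to 110 ± 7.11 CPM (SD, n = 3), a call lost without β-alanine library 2 (adjusted p = 0.0808). ATP5MF, the f subunit of the membrane part, had 66.2, 52.0 and 52.0 CPM with β-alanine and 71.6, 63.2 and 65.3 CPM in control. β-alanine library 1 lay among the controls, and the fold change of -0.25 ± 0.09 just missed the threshold (edgeR adjusted p = 0.0604). ATP5MF passed without that library (-0.36, adjusted p = 1.37e-07), with DESeq2 (adjusted p = 0.0203) and with limma-voom (adjusted p = 0.00966). In edgeR it also passed with upper-quartile scaling (adjusted p = 0.0343), library totals (0.0384) and no robust shrinkage (0.0184). The same held with no low-count filter (0.000109), with at least 50 counts in every library (0.0405) and with a replicate block (0.000864). With RLE scaling, the GC or length correction alone, thinning, or any other library left out, it did not pass. ATP5IF1, the inhibitor of the synthase, was at 127 ± 3.35 CPM with β-alanine and 128 ± 1.27 CPM in control, a log2 fold change of -0.02 with a 95% interval from -0.10 to 0.07. ATP5MGL had 1 count in all and failed the filter. Complex V summed to 3265 ± 70.9 CPM with β-alanine and 3190 ± 65.7 CPM in control, with overlapping libraries.

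The 5 noncoding and read-through members gave 0 calls. NDUFB2-AS1, antisense to NDUFB2, had a log2 fold change of 0.67 ± 0.28 (edgeR adjusted p = 0.0791) at 0.807 ± 0.149 CPM in control, and passed without β-alanine library 1. NDUFV2-AS1 and NDUFA6-DT were at 0.21 ± 0.37 and -0.06 ± 0.14 (edgeR adjusted p = 0.724 and 0.792). The read-through rows NDUFC2-KCTD14 and ATP5MF-PTCD1 failed the filter, with 2 and 28 counts in the 6 libraries together.

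Of the 21 calls, 9 held under all 19 alternative fits, including the omission of each library in turn. They were NDUFS1 and NDUFC1, which rose, and NDUFB7, NDUFA5, NDUFB3, NDUFA1, NDUFS7, ATP5MC2 and ATP5F1A, which fell.

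Companion genes are read against the same background, 27.9% of all tested genes and 40.4% of the abundant ones. For the counts without β-alanine library 1 the background is 36.2% of all tested genes. Differences between these shares were not tested. Of 58 tested assembly factors, 10 rose and 11 fell (36.2%), or 13 and 11 without β-alanine library 1. COA1, which helps assemble complexes I and IV, fell from 40.4 ± 3.03 to 23.4 ± 1.81 CPM (SD, n = 3), a log2 fold change of -0.80 ± 0.07 (edgeR adjusted p = 7.76e-08). COA6, which serves copper delivery to complex IV, rose from 32.1 ± 0.847 to 46.3 ± 2.86 CPM (0.54 ± 0.06, edgeR adjusted p = 1.46e-06). TACO1, the translational activator of the mitochondrial gene for COX1, fell from 17.8 ± 1.64 to 10.9 ± 0.807 CPM (-0.72 ± 0.09, edgeR adjusted p = 7.45e-06). ATPAF1, which helps assemble the F1 head, fell from 72.3 ± 5.80 to 51.3 ± 4.48 CPM (-0.51 ± 0.06, edgeR adjusted p = 1.34e-05). These 4 changes are larger than that of any subunit gene that passed, and each held under all 19 alternative fits.

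Among 10 electron carriers and subunits outside the symbol rule, 5 rose and 3 fell (80.0%), or 5 and 4 without β-alanine library 1. ETFDH, which passes electrons from fatty acid and amino acid oxidation to ubiquinone, rose from 39.4 ± 3.20 to 58.2 ± 2.06 CPM (SD, n = 3; 0.57 ± 0.06, edgeR adjusted p = 6.60e-07). COQ10B, which binds ubiquinone, rose by 0.40 ± 0.06 (edgeR adjusted p = 3.64e-05), and GPD2, the glycerol phosphate dehydrogenase that also feeds ubiquinone, by 0.30 ± 0.06 (edgeR adjusted p = 0.000597). CYC1, given above, was the fall with the smallest p. COQ10A, the paralogue of COQ10B, fell by 0.29 ± 0.10 (edgeR adjusted p = 0.0417), and DHODH, which also feeds ubiquinone, did not pass (-0.16 ± 0.07, edgeR adjusted p = 0.0684). NDUFAB1, the acyl carrier protein within complex I, did not pass (-0.04 ± 0.05, edgeR adjusted p = 0.553).

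Of the 13 mitochondrially encoded subunits, 0 rose and 5 fell (38.5%), with a median log2 fold change of -0.13. Without β-alanine library 1, 0 rose and 4 fell. They summed to 40860, 39390 and 38310 CPM with β-alanine and 47630, 41480 and 41540 CPM in control, without overlap, and control library 1 stood highest. MT-ATP8, of the membrane part of complex V, fell from 340 ± 19.7 to 301 ± 5.91 CPM (SD, n = 3; -0.18 ± 0.04, edgeR adjusted p = 0.0026), a call held by all 19 alternative fits. MT-ND5, of complex I, fell by 0.40 ± 0.09 (edgeR adjusted p = 0.0161), and was not called without β-alanine library 2. MT-CO3 and MT-CO1, core subunits of complex IV, fell by 0.17 ± 0.05 and 0.16 ± 0.05 (edgeR adjusted p = 0.0201 and 0.0226). Both were lost without β-alanine library 2 or 3, and without control library 1, and MT-CO3 also without β-alanine library 1. MT-CYB, the mitochondrial subunit of complex III, did not pass (-0.06 ± 0.05, edgeR adjusted p = 0.487).

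Of 19 tested regulators of mitochondrial genes, 4 rose and 3 fell (36.8%), or 5 and 3 without β-alanine library 1. CREB1 fell from 56.5 ± 3.54 to 42.5 ± 1.05 CPM (SD, n = 3; -0.42 ± 0.06, edgeR adjusted p = 1.21e-05). POLRMT, the mitochondrial RNA polymerase, rose by 0.20 ± 0.04 (edgeR adjusted p = 0.00117). ESRRA rose by 0.26 ± 0.07 (edgeR adjusted p = 0.00711) and NRF1 fell by 0.28 ± 0.08 (edgeR adjusted p = 0.0133). The ESRRA call was lost without β-alanine library 3 or control library 2 or 3, and the NRF1 call without β-alanine library 2 or 3, and without control library 3. GABPA and YY1, whose letters were searched in the promoters, did not pass (0.06 ± 0.05 and 0.03 ± 0.04, edgeR adjusted p = 0.417 and 0.613). The coactivator gene PPARGC1A had 2 counts in all.

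Of 14 citric acid cycle genes, 2 rose and 4 fell (42.9%), with a median log2 fold change of 0.06. Without β-alanine library 1, 5 rose and 5 fell (71.4%). SUCLG1, the alpha subunit shared by both forms of succinyl-CoA ligase, fell by 0.31 ± 0.06 (edgeR adjusted p = 0.000225). The beta subunits moved apart: SUCLA2, of the form that makes ATP, rose by 0.32 ± 0.06 (edgeR adjusted p = 0.00048), and SUCLG2, of the form that makes GTP, fell by 0.24 ± 0.06 (edgeR adjusted p = 0.00266). FH, fumarase, fell by 0.27 ± 0.05 (edgeR adjusted p = 0.000442). Succinate dehydrogenase, which stands between succinyl-CoA ligase and fumarase in the cycle, had 1 gene that rose, as given above.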

How the data were processed

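The authors deposited a table of raw counts, whole numbers per gene symbol, for 6 libraries of polyadenylated RNA. The submitters' processing notes name STAR 2.7.3a, featureCounts 2.0.1, Trimmomatic 0.39, bcl2fastq and DESeq2, and the build GRCh38. Tool settings, gene annotation and strandedness were not given in the sources used here, so overlapping genes and near-identical copies may share reads or lose them. Groups came from the sample titles.

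Genes were filtered with filterByExpr, leaving 17331, and scaled by TMM. The test was edgeR 4.0.16's robust quasi-likelihood test in R 4.3.3, two-sided, on all 6 libraries, with Benjamini-Hochberg adjustment over all tested genes and a threshold of 0.05. CPM uses TMM-scaled totals. Levels per kilobase divide by the length of 1 transcript per gene from GENCODE release 29. Gene positions and promoters came from RefSeq (GRCh38.p14). The common dispersion was 0.00189. On simulated counts for 17133 genes, the test found 59.1% of 44 changed by 1.25-fold and 81.5% of 54 changed by 1.5-fold. There were 8 false among 166 calls. The simulation changed few genes and gave all the same dispersion, whereas 27.9% of tested genes passed in the data. Its rates therefore need not hold for the members. Changes below 1.25-fold, as in most members, can be missed, although some of them passed. Intervals for pooled counts cover counting error only.

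The members and companion lists were chosen with earlier results of these data known, so no test over a list is given. Named were the called members with the smallest p in each complex (up to 6 per direction), all SDH genes, paralogue sets, members that failed the filter, and up to 4 called genes per companion list. NDUFA2, NDUFS4, NDUFC2, NDUFV1, NDUFV2, UQCRC1, UQCRC2, UQCRFS1, UQCRHL, ATP5F1C, ATP5F1D, ATP5F1E, ATP5MF, the antisense and divergent rows, the overlapping neighbours, the SDHA pseudogenes, COQ10A, DHODH, NDUFAB1, MT-CYB, GABPA and YY1 were named after their values were seen. Alternatives were other scalings and filters, DESeq2 1.42.0, limma-voom 3.58.1, a replicate block, corrections for GC content and length, thinning and leaving out each library. Whether replicate numbers pair the samples was not settled, so the main test did not use them. Deviations of same-numbered libraries correlated at 0.047, 0.004 and 0.066, and those of differently numbered ones at -0.068 to 0.007.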

Additional observations from a re-analysis of the deposited data

How the results depend on the processing

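Across the alternatives, 722 values of single named genes kept their direction and side of the threshold, 37 lost the call, 20 gained one and 17 changed sign; the cause was not tested. DESeq2 lost 4 of the 21 calls, the GC correction 1, the length correction 1 and thinning 2, while the scalings, filters and limma-voom lost 0. At an adjusted p of 0.01, 2845 genes passed (1454 rising, 1391 falling; 16.4%), with 14 members (16.9%), 5 rising and 9 falling, and 8 in complex I. DESeq2 called 18 of 82 members with an adjusted p (22.0%) and 23.0% of 15987 genes. The fit with a replicate block kept all 21 calls and added NDUFA4, ATP5MF and ATP5F1D, making 24, of which 2 in complex IV. With the GC correction in the same fit the replicate block called 1 complex III gene, UQCRC2 (adjusted p = 0.0386), and 2 in complex IV. With no filter on low counts, 2 complex IV genes passed. The median of complex III was 0.0095 with library totals and 0.0242 after thinning.

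Leaving out 1 library at a time gave 2974 (without β-alanine library 2) to 6498 (without β-alanine library 1) calls over all genes, 1501 to 3204 rising and 1473 to 3294 falling. It gave 13 to 28 member calls, 3 to 12 rising and 8 to 16 falling. Calls ranged from 9 to 16 in complex I, 0 to 1 in complex II, 0 to 2 in complex IV and 2 to 8 in complex V, and stayed at 0 in complex III. Medians ranged from -0.0223 to 0.0117 over members, -0.0454 to -0.0022 in complex I, 0.0385 to 0.0902 in complex II, -0.0203 to 0.0357 in complex III, -0.0311 to 0.0184 in complex IV and -0.0188 to 0.0292 in complex V.

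Signs changed in named genes with a fold change near 0, and library totals moved the median of all tested genes from -0.0032 to 0.0144, which by itself turns values this small. COX6A1, at 0.1258 without control library 1, was at -0.0102 with the GC correction, -0.0112 with the length correction, -0.0085 after thinning, and -0.0148, -0.0375 and -0.0611 without β-alanine library 2, control library 2 and control library 3. COX7A2L was at 0.0136 with library totals, 0.0040 with no filter, 0.0125 with the length correction, and 0.0074, 0.0072 and 0.0023 without β-alanine library 1, control library 1 and control library 2, against -0.0241 without control library 3. ATP5MC3 was at 0.0023 with library totals, 0.0030 with the length correction and 0.0107 after thinning. ATP5IF1 was at 0.0004 with library totals, and UQCRC1 at -0.0008 without β-alanine library 1 and 0.0526 without control library 2. Depth limits what can be said of NDUFV2, NDUFA7 and the tissue forms of complex IV.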
